A study of Mus musculus with 1627 samples.

Results

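The 9 genes described here encode the signalling part of the T cell receptor complex and the first proteins that carry its signal inward: Cd3d, Cd3e, Cd3g and Cd247 of the complex, the kinases Lck and Zap70, the adaptor Lat, and the surface receptors Cd5 and Cd6. They were chosen by name from the 23725 genes of the count table, and all 9 had a row there and passed the minimum of 50 unique molecular identifiers (UMIs, the tags that mark each captured mRNA) over all libraries. The cells were regulatory T cells (Tregs), CD4 T cells that restrain immune responses, sorted as live cells with the T cell receptor, CD4 and green fluorescence. Of 1627 cells in all, 1368 came from injured muscle, in muscle library 1 (41.4% of all cells) and muscle library 2 (42.7%), and the other 15.9% made up the only spleen library. Every group came from male mice aged 8 months of the strain B6 Foxp3-Ires-Gfp, in which the green fluorescent protein is read from the Foxp3 transcript. All cells were taken 4 days after cardiotoxin, a snake toxin that destroys muscle fibres, so the spleen cells also came from injured mice and no uninjured group was analysed here. No label names an animal or says whether cells were pooled over animals. The tissues are therefore treated as 1 sample each, which allows no test of their difference and no p-value.

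On a T cell, the receptor's antigen-binding chains have almost no signalling tail of their own. They depend on the CD3 delta, epsilon and gamma chains and on the zeta chain, whose tyrosine motifs the kinase Lck phosphorylates. Zap70 docks on those phosphorylated motifs and in turn phosphorylates Lat, the membrane scaffold on which calcium and Ras signalling assemble, while CD5 and CD6 are related scavenger-receptor-type glycoproteins that tune the strength of the signal. Tregs need this receptor for their development and for much of their suppressive function.

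Libraries differed in depth and makeup. Counts summed to 1533277 UMIs in muscle library 1, 1916496 in muscle library 2 and 982570 in spleen, and the median cell held 1976, 2488 and 3541 UMIs in that order. Levels are given as counts per 1000000 UMIs of the library's total (CPM), on which scale 1 UMI was worth 0.652, 0.522 and 1.02 CPM. Ribosomal protein genes took 13.4% and 13.7% of UMIs in the muscle libraries and 22.3% in spleen. The sorted identity was visible in each library: Foxp3 stood at 554.4 and 551.5 CPM in the muscle libraries and 368.4 CPM in spleen, and Cd4 at 553.7 and 597.97 CPM in the muscle libraries and 383.7 CPM in spleen. Markers of other cells were low: 7 B cell markers summed to 37.2 and 41.2 CPM in the muscle libraries and 42.7 in spleen, with Ms4a1, Ebf1 and Pax5 at 0 in every library; 10 myeloid markers summed to 17.6 and 22.96 CPM in the muscle libraries and 53.9 in spleen, with Adgre1 at 0. The 7 markers of CD8 and natural killer cells summed to 80.2 and 83.5 CPM in the muscle libraries and 102.8 in spleen, and 9 muscle and stromal markers to 91.3 and 101.2 CPM in the muscle libraries and 145.5 in spleen, with Myh4, Pdgfra and Cdh5 at 0. Between libraries, 12 cell barcodes occurred more than once, 11 of them in both muscle libraries and 1 in muscle library 1 and spleen. Every interval below is an exact 95% interval, and it covers the error of counting alone. UMIs of a gene cluster within cells, which the intervals leave out. For Lck, the variance of the count per cell was 3.03 and 3.74 times its mean in the muscle libraries and 5.18 times in spleen.

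The T cell receptor signalling genes stood at nearly the same level in Tregs of injured muscle and of the spleen. A gene was called when its level in each muscle library was 2-fold or more above spleen, or 2-fold or more below it. By that rule 0 of the 9 members were called, beside 7.47% of the 7617 genes with at least 50 UMIs called higher in muscle and 3.45% called lower; for a list of 9 genes a count of 0 is near those shares. Summed, the 9 genes gave 3297 CPM (3207 to 3389) in muscle library 1, 3577 CPM (3493 to 3663) in muscle library 2 and 3392 CPM (3278 to 3509) in spleen. The spleen sum lay between those of the muscle libraries, and the sums differed more between the muscle libraries (1.08-fold, 1.05 to 1.13) than muscle library 1 differed from spleen (0.972-fold, 0.930 to 1.02). Muscle library 2 stood at 1.05-fold spleen (1.01 to 1.10). The median over the members of the mean log2 fold, muscle over spleen, was 0.05, the same as the 0.05 over all genes tested. Positive log2 folds in both muscle libraries were found for 5 of the 9 members, beside 43.3% of all genes, and negative ones in both for 2, beside 35.4%. With ribosomal protein genes left out of the totals, the median of all genes moved to -0.10 and that of the members to -0.11, a shift that this scaling gives every gene alike; it left 51.6% of all called genes higher in muscle, beside 68.4% with whole totals.

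**Figure D1:**
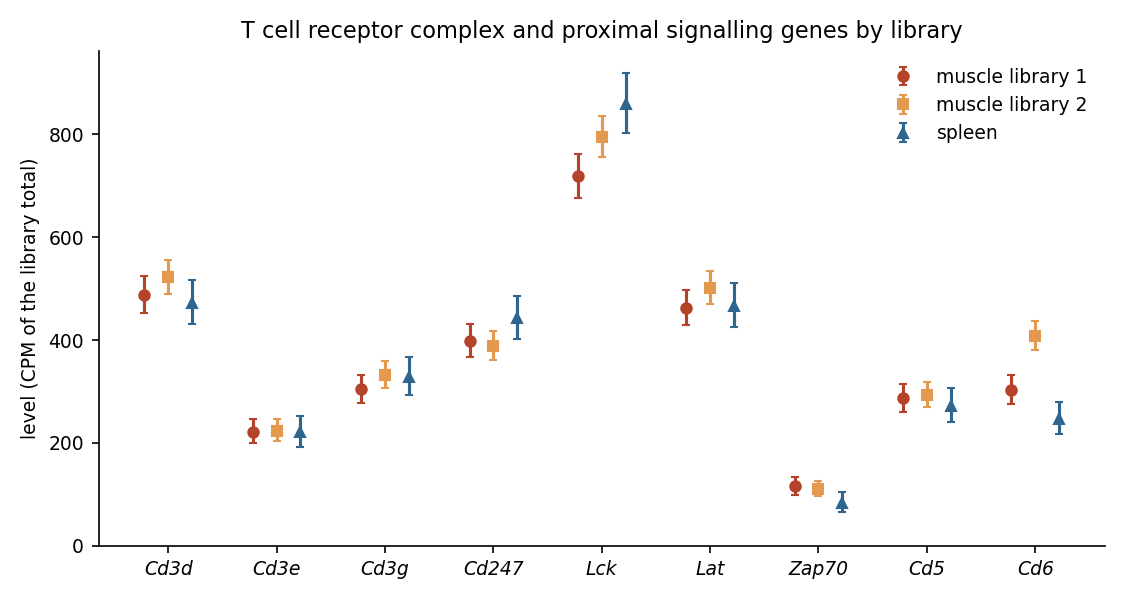
Level of each of the 9 genes in CPM of the library total, with exact Poisson 95% intervals, in muscle library 1, muscle library 2 and spleen. The 3 intervals overlap for every member except Lck and Cd6, of which Cd6 lies at 302.6 and 408.04 CPM in the muscle libraries and at 246.3 CPM in spleen.

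Cd3e was the most level member, and the other CD3 chains differed between tissues by less than counting error. Cd3e, the epsilon chain, present in both CD3 dimers of the complex, stood at 221.7 CPM (198.8 to 246.6) in muscle library 1, 223.3 CPM (202.7 to 245.5) in muscle library 2 and 220.8 CPM (192.4 to 252.3) in spleen. Its folds over spleen were 1.004 (0.844 to 1.20) and 1.01 (0.857 to 1.20), and 1.46% of all genes tested had a smaller absolute mean log2 fold. Cd3d, the delta chain, stood at 487.8 and 521.8 CPM in the muscle libraries and 472.2 CPM in spleen, which gave folds of 1.03 (0.919 to 1.16) and 1.10 (0.989 to 1.24). Both muscle libraries were slightly above spleen, within counting error. Cd3g, the gamma chain, stood at 303.9 and 332.9 CPM in the muscle libraries and 328.7 CPM in spleen, with folds of 0.925 (0.8005 to 1.07) and 1.01 (0.884 to 1.16), so the muscle libraries lay on either side of spleen. The sign of these small differences was not fixed. Over the 10 alternatives tried, which were other scalings, other choices of cells and each muscle library alone, it turned in 1 for Cd3d, 5 for Cd3e and 4 for Cd3g, and the mean log2 fold ranged from -0.14 to 0.03 for Cd3e, from -0.06 to 0.14 for Cd3d and from -0.20 to 0.11 for Cd3g. The 3 chains together gave 1014 CPM (964 to 1065) in muscle library 1, 1078 CPM (1032 to 1126) in muscle library 2 and 1022 CPM (960 to 1087) in spleen.

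The proportions among the CD3 chains were likewise close, and these do not depend on how libraries are scaled. Cd3d made up 48.1% and 48.4% of CD3 UMIs in the muscle libraries and 46.2% in spleen (exact binomial interval 43.1% to 49.4%). Cd3e made up 21.9% and 20.7% in the muscle libraries and 21.6% in spleen, and Cd3g 29.99% and 30.9% in the muscle libraries and 32.2% in spleen. For each chain the intervals of the 3 libraries overlapped. Because the method primes at the poly(A) tail and counts do not scale with transcript length, these shares were compared between libraries and not between chains.

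The genes of the CD3 chains lie together on mouse chromosome 9 (GRCm38), Cd3g at 44969572 to 44980431 on the minus strand, Cd3d at 44981786 to 44987339 on the plus strand and Cd3e at 44998740 to 45009627 on the minus strand in the GENCODE M21 annotation. Cd3g and Cd3d start 1354 bases apart and point away from each other, without overlapping another annotated gene, while Cd3e overlaps the predicted genes Gm48720 on its own strand and Gm48719 on the other, whose reads could not be told apart from its own, since no source used here states a strand setting for the counting. The upstream sequences of this head-to-head pair are shown because its transcripts kept their proportion between the tissues. They were taken from RefSeq (GRCm38.p6), read 5′ to 3′ on the strand of the gene and end at the base before the first annotated start; for Cd3d this left off the last 17 of the 250 bases before the listed start. Capitals mark matches, on either strand, to 5 short motifs. These are GGAAGT, a core that factors of the ETS family bind; TGTGGT, the core of RUNX factors; and CACCTG, an E-box that E proteins bind. The others are TATAAA, known as the TATA box, and TGACGT, part of the cyclic AMP response element.
Cd3d, chr9:44981536-44981768, plus strand: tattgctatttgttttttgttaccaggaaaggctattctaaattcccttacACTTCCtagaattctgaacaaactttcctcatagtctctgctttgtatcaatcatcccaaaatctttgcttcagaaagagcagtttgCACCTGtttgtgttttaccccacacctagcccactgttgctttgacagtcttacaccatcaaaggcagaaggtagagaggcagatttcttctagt
Cd3g, chr9:44980432-44980681, minus strand: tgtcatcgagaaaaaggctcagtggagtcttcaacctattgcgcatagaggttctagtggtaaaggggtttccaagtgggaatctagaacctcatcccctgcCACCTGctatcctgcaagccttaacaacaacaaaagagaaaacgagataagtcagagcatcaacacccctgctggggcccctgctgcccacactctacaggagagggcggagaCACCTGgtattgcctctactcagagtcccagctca
The capitals in Cd3d are an ETS match on the other strand and then an E-box match, and both in Cd3g are E-box matches, the nearer one beginning 35 bases before the start. RefSeq listed a promoter for 8 of the 9 members, and Cd6 was the one without. Within 250 bases before a listed start, an ETS match and an E-box match each occurred in 6 of these 8 members, or 7 of their 11 listed starts, beside 19.7% and 17.2% of all 32851 listed promoters. RUNX and cyclic AMP element matches each occurred in 2 of the 8 members, or 2 of their 11 listed starts, beside 14.05% and 6.47% of all promoters. A TATA match occurred in 0 of the 11 starts, beside 12.4%. A match describes letters only and is not a binding site.

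Cd247, the zeta chain that brings most of the tyrosine motifs to the complex, was slightly lower in muscle. It stood at 398.5 CPM (367.5 to 431.4) in muscle library 1, 389.3 CPM (361.8 to 418.2) in muscle library 2 and 442.7 CPM (402.1 to 486.3) in spleen. The folds were 0.900 (0.795 to 1.02) and 0.879 (0.780 to 0.992), and the mean log2 fold stayed below 0 in all 10 alternatives, between -0.49 and -0.14. Of the UMIs of the CD3 and zeta chains together, Cd247 took 28.2% and 26.5% in the muscle libraries and 30.2% in spleen. Cd247 spans 165788681 to 165877277 on chromosome 1. It overlaps the predicted gene Gm16565 on its own strand, and Pou2f1 and 4 predicted genes on the other. Reads of those genes cannot be told apart from its own.

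Among the intracellular members, the kinases Lck and Zap70 lay on opposite sides of spleen. Lck, the Src-family kinase that starts the signal, stood at 719 CPM (676.9 to 762) in muscle library 1, 796 CPM (756 to 837) in muscle library 2 and 860 CPM (803 to 920) in spleen. Both muscle libraries were below spleen, at 0.836-fold (0.763 to 0.915) and 0.925-fold (0.850 to 1.01), and the interval of the second held 1. Zap70, the kinase that docks on the phosphorylated chains, stood at 115.4 CPM (99.1 to 133.8) in muscle library 1, 110.1 CPM (95.7 to 125.997) in muscle library 2 and 83.5 CPM (66.4 to 103.6) in spleen, the last from 82 UMIs. Its folds of 1.38 (1.06 to 1.82) and 1.32 (1.02 to 1.72) were alike in the muscle libraries, and both intervals lay above 1. These folds share the same 82 spleen UMIs and so are not independent of each other. The variance of the Zap70 count per cell was 1.35 and 1.69 times its mean in the muscle libraries and 1.84 times in spleen, which the intervals leave out. Of all genes tested, 50.1% had a smaller absolute mean log2 fold than Zap70 and 23% a smaller one than Lck, so neither stood out from the spread of these genes. In total UMIs, Zap70 lay above 78.2% of them and Lck above 97.4%. A share among genes with like numbers of UMIs was not computed. Both directions held in all 10 alternatives, with a mean log2 fold between 0.19 and 0.47 for Zap70 and between -0.34 and -0.11 for Lck. The intervals above use whole totals and were not recomputed for these alternatives. With ribosomal protein genes left out of the totals, the mean log2 fold was 0.28 for Zap70 and -0.34 for Lck. That scaling lowers every fold and its interval alike, so whether an interval of Zap70 or Lck lies apart from 1 depends on it. Lat, the adaptor that Zap70 phosphorylates, stood at 461.8 and 501.96 CPM in the muscle libraries and 466.1 CPM in spleen, with folds of 0.991 (0.880 to 1.12) and 1.08 (0.962 to 1.21), and its sign turned in 2 of the 10 alternatives. In the annotation Lck overlaps Mir8119 and Lat overlaps Mir7058, each on its own strand.

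Between the kinases Lck and Zap70, only Zap70 stood above spleen in CPM, a difference that rests on 82 spleen UMIs. Its upstream sequence is given in the same way, before the first of its 3 listed starts. The gene spans 36761798 to 36782818 on the plus strand of chromosome 1 and overlaps the predicted gene Gm18828 on the other strand. Its capitals are a pair of E-box matches on the other strand, far from the start, and a cyclic AMP element beginning 18 bases before the start, whose forward and reverse matches overlap.
Zap70, chr1:36761548-36761797, plus strand: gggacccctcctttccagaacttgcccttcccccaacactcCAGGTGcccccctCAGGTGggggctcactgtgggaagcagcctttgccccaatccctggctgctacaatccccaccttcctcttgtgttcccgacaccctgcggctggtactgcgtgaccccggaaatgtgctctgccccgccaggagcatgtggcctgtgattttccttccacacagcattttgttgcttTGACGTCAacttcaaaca

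Cd6 was the member that differed most between the tissues. This receptor of activated leukocyte cell adhesion molecule stood at 302.6 CPM (275.7 to 331.4) in muscle library 1, 408.04 CPM (379.9 to 437.7) in muscle library 2 and 246.3 CPM (216.2 to 279.4) in spleen. Both muscle libraries were above spleen, at 1.23-fold (1.05 to 1.44) and 1.66-fold (1.43 to 1.92), and they also differed from each other, by 1.35-fold (1.20 to 1.52) between library 2 and library 1. The difference between the muscle libraries was thus of the same order as their difference from spleen. The mean log2 fold of 0.51 lay between 0.30 and 0.73 over the 10 alternatives, the ends being each muscle library alone, and 57.3% of all genes had a smaller absolute value. Cd5, the related receptor whose level is known to follow the strength of receptor signals in developing T cells, was level, at 286.3 and 293.8 CPM in the muscle libraries and 271.7 CPM in spleen, with folds of 1.05 (0.903 to 1.23) and 1.08 (0.933 to 1.26). Within the sum of Cd5 and Cd6, Cd6 made up 51.4% and 58.1% in the muscle libraries and 47.5% in spleen. Cd5 (10717116 to 10739002) and Cd6 (10789341 to 10830058) neighbour each other on the minus strand of chromosome 19, with 50338 bases between them and no annotated overlap.

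**Figure D2:**
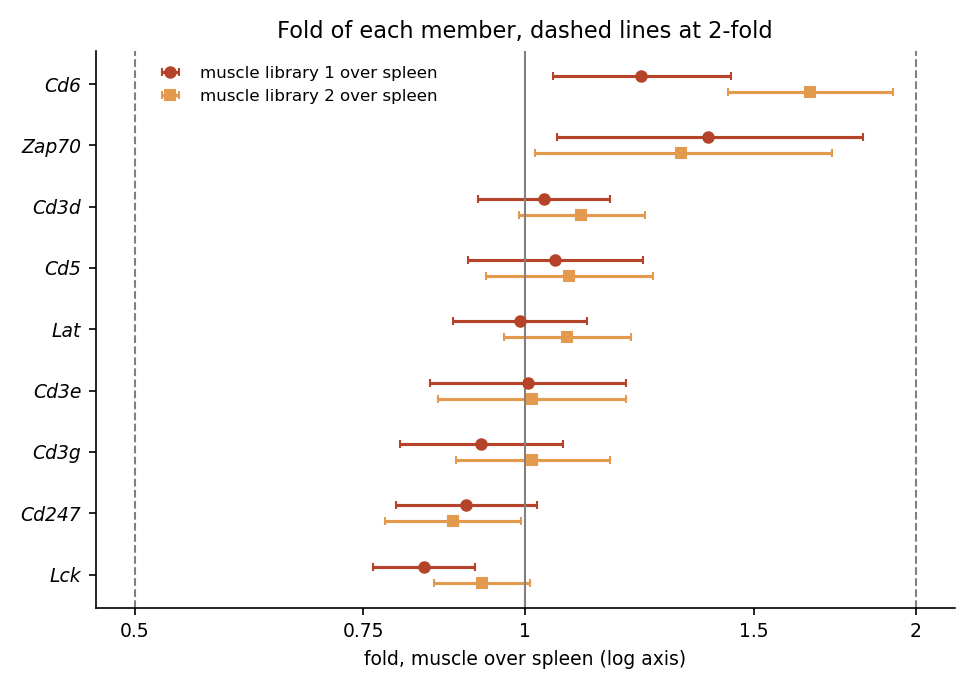
Fold of each member in each muscle library over spleen on a log axis, with exact conditional binomial 95% intervals, ordered by the mean log2 fold. With whole totals, all points lie within the dashed lines at 2-fold. On these totals both intervals lie above 1 for Cd6 and Zap70, and no member has both intervals below 1. Leaving ribosomal protein genes out of the totals lowers every fold and its interval alike. Mean log2 folds were then 0.36 for Cd6 and 0.28 for Zap70. Which intervals lie apart from 1 therefore depends on the scaling, and they were not recomputed for other scalings.

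Within the summed UMIs of the 9 genes, the intervals of the 3 libraries overlapped for every member except Lck, Cd6 and Cd247. Lck took 21.8% and 22.2% of the sum in the muscle libraries and 25.4% in spleen, and Cd6 took 9.18% and 11.4% in the muscle libraries and 7.26% in spleen. Cd247 took 12.1% and 10.9% in the muscle libraries and 13.1% in spleen, and only the interval of muscle library 2 lay apart from that of spleen. Zap70 took 3.50% and 3.08% in the muscle libraries and 2.46% in spleen, with overlapping intervals. The share of Lat was nearly the same in all libraries, at 14.01% and 14.03% in the muscle libraries and 13.7% in spleen.

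At equal depth, the CD3 chains were seen in nearly the same share of cells in each tissue. After each cell was thinned to 1000 UMIs, which left out 26 and 7 shallower cells of the muscle libraries and 0 of spleen, a UMI of any CD3 chain was seen in 58.95% of cells in muscle library 1 (55.1% to 62.8%), 58.95% in muscle library 2 (55.2% to 62.7%) and 58.3% in spleen (52.04% to 64.4%). Without thinning the shares were 78.8% and 82.85% in the muscle libraries and 85.3% in spleen, in the order of the cells' depth. Any of the 9 genes was seen in 94.9% and 93.6% of thinned muscle cells and 90.3% of thinned spleen cells. Cd6 was seen in 26.1% (22.7% to 29.6%) and 27.9% (24.6% to 31.5%) of thinned cells in the muscle libraries and 16.6% (12.3% to 21.7%) in spleen, and in 42.1% and 47.1% of unthinned muscle cells against 38.2% of unthinned spleen cells. For Cd6, the share of cells and the level in CPM therefore pointed the same way. Lat was seen in 39.5% and 33.6% of thinned muscle cells and 28.96% of thinned spleen cells, although its CPM was level, so no order is read from its share. Shares of the other members overlapped: Zap70, for example, was seen in 10.3% and 9.32% of thinned muscle cells and 8.11% of thinned spleen cells, and Lck in 40.1% and 39.9% of thinned muscle cells and 45.6% of thinned spleen cells. The sort held 1 cell type, so no cells lacking the receptor were at hand to set a background for these shares.

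**Figure D3:**
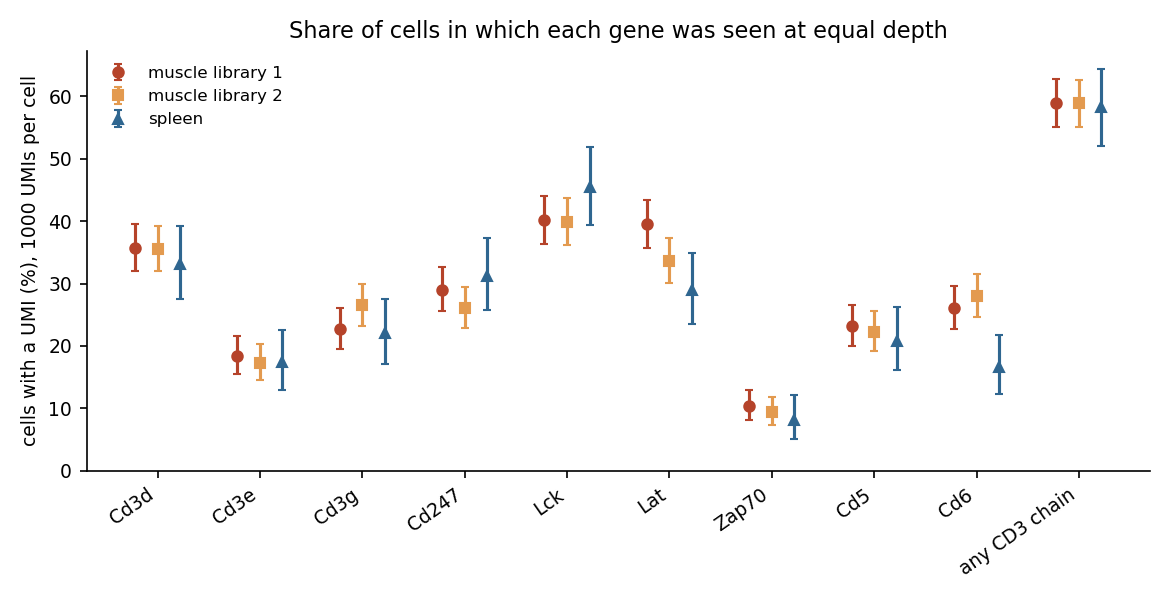
Share of cells with at least 1 UMI of each gene, and of any CD3 chain, after thinning to 1000 UMIs per cell, with exact binomial 95% intervals. Cd6 was seen in 26.1% and 27.9% of muscle cells and 16.6% of spleen cells, while any CD3 chain was seen in 58.95%, 58.95% and 58.3%.

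A thinned cell showed a median of 2 of the 9 genes in every library, and 33 and 44 thinned muscle cells and 25 thinned spleen cells showed none. Across thinned cells of a library, the correlation of counts for the 36 pairs of members had a median of 0.01 and 0.00 in the muscle libraries and 0.01 in spleen, and the highest value was 0.20, for Cd3g and Cd6 in spleen. The cells of a library share its preparation, and values this weak in counts this sparse are no finding about the cells.

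Within the spleen, Cd3g, Lat and Cd6 were higher in cells with an effector profile, each with an interval that held 1 under some alternative. Cells of each library were ranked by a score, the mean of 14 effector genes (among them S100a4, Lgals1, Itgae and Klrg1) minus that of 10 genes of resting lymphocytes (among them Ccr7, Tcf7 and Lef1). The cells at the effector end and as many at the resting end, 33.2% and 33.3% of the muscle libraries and 33.2% of spleen, were summed. They are ranges of a score and not cell types, and 15.6% and 14.6% of muscle cells and 11.6% of spleen cells lay within 0.05 of a boundary. In spleen, Cd3g stood at 410.7 CPM in the 86 cells of the effector end and 241.1 CPM in the 86 cells of the resting end, a fold of 1.70 (1.28 to 2.29). Lat stood at 535.6 CPM at the effector end and 334.9 CPM at the resting end of spleen, a fold of 1.60 (1.25 to 2.06). Cd6 stood at 319.2 CPM at the effector end and 204.3 CPM at the resting end of spleen, a fold of 1.56 (1.14 to 2.17). The other intervals in spleen held 1, with the lowest fold at Cd247 (0.998, 0.788 to 1.27). Over the 9 members together the spleen fold with whole totals was 1.25 (1.14 to 1.36), a log2 fold of 0.32. This sum was not recomputed without ribosomal protein genes, a scaling that lowers every spleen fold alike. The median log2 fold over the 2313 genes with at least 50 UMIs in those cells was 0.15. Of these genes, 14.3% were at least 2-fold higher at the effector end and 5.32% at least 2-fold lower, while the highest fold of a member was 1.70. The share of all genes with an interval above 1 was not computed, so Cd3g, Lat and Cd6 are not read as set apart from other genes.

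The same ranking within muscle gave folds near 1. Over the 9 members the effector end stood at 1.01-fold (0.940 to 1.08) the resting end in muscle library 1 and 1.01-fold (0.9499 to 1.07) in muscle library 2. Cd3g had folds of 1.05 (0.827 to 1.32) and 1.01 (0.828 to 1.23), and Cd6 of 1.03 (0.813 to 1.31) and 1.06 (0.884 to 1.28). Intervals away from 1 occurred in muscle library 2 alone, for Cd3d, at 480.2 CPM at the effector end and 610.5 CPM at the resting end (0.786, 0.674 to 0.918), and for Zap70, at 132.2 CPM at the effector end and 75.8 CPM at the resting end (1.74, 1.19 to 2.59); in muscle library 1 these folds were 0.920 (0.767 to 1.11) and 1.02 (0.695 to 1.49). Whether spleen and muscle differ in these gradients was not tested.

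Ribosomal protein genes moved with the score, more in spleen than in muscle. They took 12.6% of UMIs at the effector end and 14.6% at the resting end of muscle library 1, 12.9% at the effector end and 14.7% at the resting end of muscle library 2, and 16.9% at the effector end and 27.04% at the resting end of spleen. Their part in the spleen folds was not tested beyond the scaling given next. With these genes left out of the totals, a scaling added after the data were seen, the spleen folds were 1.496 (1.12 to 2.01) for Cd3g, 1.40 (1.10 to 1.81) for Lat and 1.37 (0.997 to 1.90) for Cd6. Among spleen cells of 1500 to 5000 UMIs the fold of Cd6 was 1.02 (0.673 to 1.56), and that of Cd3g 1.77 (1.24 to 2.54). With the effector genes alone as the score, Cd3g was at 1.17 (0.875 to 1.56) and Lat at 1.54 (1.21 to 1.98), and with the resting genes alone Lat was at 1.21 (0.962 to 1.53) and Cd3g at 1.86 (1.40 to 2.49).

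In the makeup of the CD3 sum, a quantity free of scaling, the share of Cd3d was lower and that of Cd3g higher at the effector end in each library, while that of Cd3e went different ways. Cd3d made up 46.8% (42.6% to 51.02%) of CD3 UMIs at the effector end and 50.6% (45.8% to 55.4%) at the resting end of muscle library 1, and 44.8% (41.3% to 48.4%) at the effector end and 52.9% (48.8% to 56.9%) at the resting end of muscle library 2. In spleen it made up 42.5% (37.8% to 47.4%) at the effector end and 47.5% (41.2% to 53.8%) at the resting end. The intervals of both ends were apart in muscle library 2 and overlapped in the others. The share of Cd3g was higher at the effector end in each library, at 30.8% against 29.3% in muscle library 1, 31.4% against 28.9% in muscle library 2 and 34.6% against 28.02% in spleen, with overlapping intervals throughout. Cd3e made up 22.4% at the effector end and 20.1% at the resting end of muscle library 1, 23.8% at the effector end and 18.2% at the resting end of muscle library 2, and 22.9% at the effector end and 24.5% at the resting end of spleen, also with overlapping intervals.

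**Figure D4:**
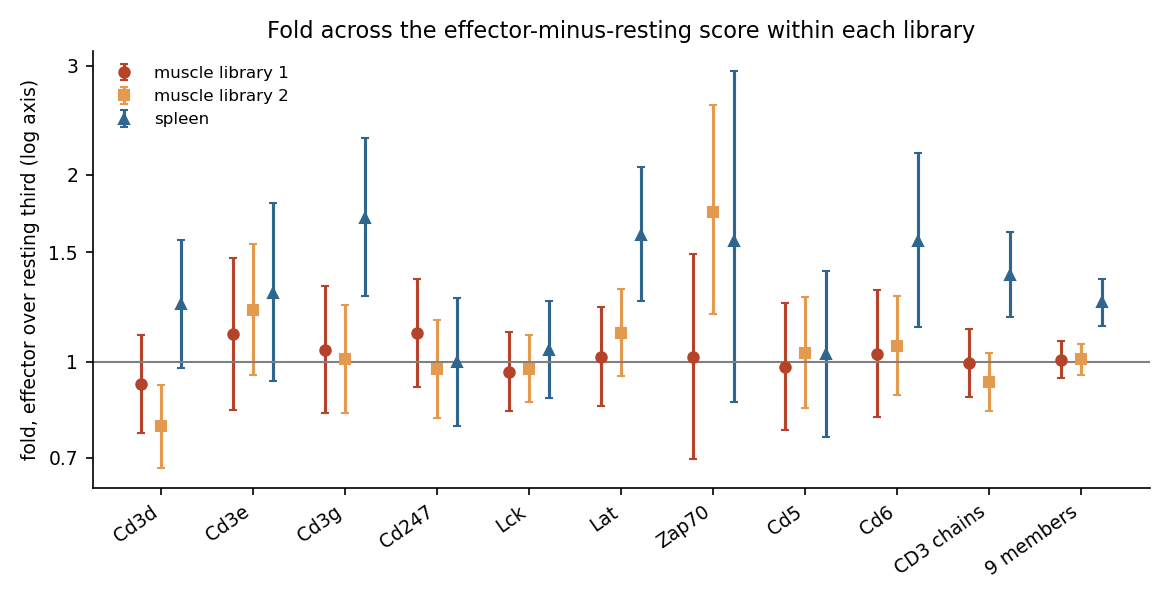
Fold of the effector end over the resting end of the score within each library, on a log axis, with exact conditional binomial 95% intervals, for each member, the CD3 chains summed and all 9 members summed. All folds use whole totals. In spleen Cd3g, Lat and Cd6 lie at 1.70, 1.60 and 1.56, while the sum of the 9 members lies at 1.01 in each muscle library.

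Other genes of the pathway, a longer list, spanned a wider range than the members. Of 65 listed genes, grouped as coreceptors and costimulatory partners, kinases, adaptors, phosphatases and ligases, and downstream enzymes and calcium, 59 had at least 50 UMIs; 1 was called higher in muscle and 2 lower (1.69% and 3.39%, beside 7.47% and 3.45% of all genes), and the median of their mean log2 folds was -0.05, against 0.05 over all genes. Of 4 listed genes of the receptor's own chains, 0 had a row in the count table under the listed symbols, so they were not analysed. Dok1, an adaptor that recruits a brake on Ras, stood at 50.2 and 46.4 CPM in the muscle libraries and 7.12 CPM in spleen, from 77, 89 and 7 UMIs, with folds of 7.05 (3.26 to 18.1) and 6.52 (3.04 to 16.7). Its muscle libraries were alike and far above spleen. Prkcq, the protein kinase C theta that links the receptor to NF-kB, was lower in muscle, at 63.3 and 64.7 CPM in the muscle libraries and 144.5 CPM in spleen, with log2 folds of -1.19 and -1.16. It overlaps the predicted genes Gm36932 and Gm37766 on its strand and Gm37520 on the other. Trat1, a small transmembrane adaptor that associates with the receptor complex, stood at 18.3 and 12 CPM in the muscle libraries and 41.7 CPM in spleen, with log2 folds of -1.19 and -1.80; it overlaps the predicted gene Gm8670 on its strand.

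Grouped by role, kinases leaned towards spleen, with 7 of 9 measured genes negative in both muscle libraries, beside 35.4% of all genes, and a median mean log2 fold of -0.35. Csk, which restrains Lck, stood at 299.4 and 275.5 CPM in the muscle libraries and 337.9 CPM in spleen; Fyn, the other Src-family kinase of T cells, at 268.1 and 244.7 CPM in the muscle libraries and 322.6 CPM in spleen. Dgka, which removes the second messenger diacylglycerol, stood at 198.3 and 310.98 CPM in the muscle libraries and 411.2 CPM in spleen, past 2-fold in library 1 only. Downstream enzymes and calcium genes were negative in both muscle libraries for 8 of 13, with a median of -0.31. Among them Nfatc1, a transcription factor that calcium signals activate, stood at 131.1 and 115.8 CPM in the muscle libraries and 226.96 CPM in spleen, and Rasgrp1, which loads Ras, at 189.1 and 156.5 CPM in the muscle libraries and 224.9 CPM in spleen. Nfatc3, its relative among the calcium-regulated factors, stood at 178.1 and 168.5 CPM in the muscle libraries and 207.6 CPM in spleen.

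Adaptors were split, with 11 of 22 positive and 8 negative in both muscle libraries and a median of 0.13. Sla, which promotes removal of the receptor complex from the surface, stood at 903 and 952 CPM in the muscle libraries and 522.1 CPM in spleen, folds of 1.73 (1.56 to 1.92) and 1.82 (1.65 to 2.02). Lime1, a transmembrane adaptor that binds Lck, stood at 390.01 and 496.2 CPM in the muscle libraries and 253.4 CPM in spleen, while Grb2, which couples Lat to Ras, stood at 393.9 and 352.2 CPM in the muscle libraries and 327.7 CPM in spleen. Phosphatases and ligases had 0 of 9 called and a median of -0.06; Ptpn7 stood at 181.96 and 197.2 CPM in the muscle libraries and 233.1 CPM in spleen. Ptpn22, which removes the activating phosphate of Lck, stood at 133.05 and 169.1 CPM in the muscle libraries and 151.6 CPM in spleen, and Ubash3b, a phosphatase that acts on Zap70, at 106.96 and 100.7 CPM in the muscle libraries and 97.7 CPM in spleen. Coreceptors and costimulatory partners had 0 of 6 called and a median of 0.15. Ptprc (CD45), the phosphatase that keeps Lck ready, stood at 1216 and 1165 CPM in the muscle libraries and 1231 CPM in spleen, whereas Cd2 stood at 788 and 903 CPM in the muscle libraries and 598.4 CPM in spleen, and Thy1 at 699 and 727 CPM in the muscle libraries and 556.7 CPM in spleen. Of the known partners of CD6 and CD5, Alcam stood at 35.2 and 22.4 CPM in the muscle libraries and 15.3 CPM in spleen, and Cd72, the partner proposed for CD5, at 20.9 and 23.5 CPM in the muscle libraries and 16.3 CPM in spleen, neither called.

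**Figure D5:**
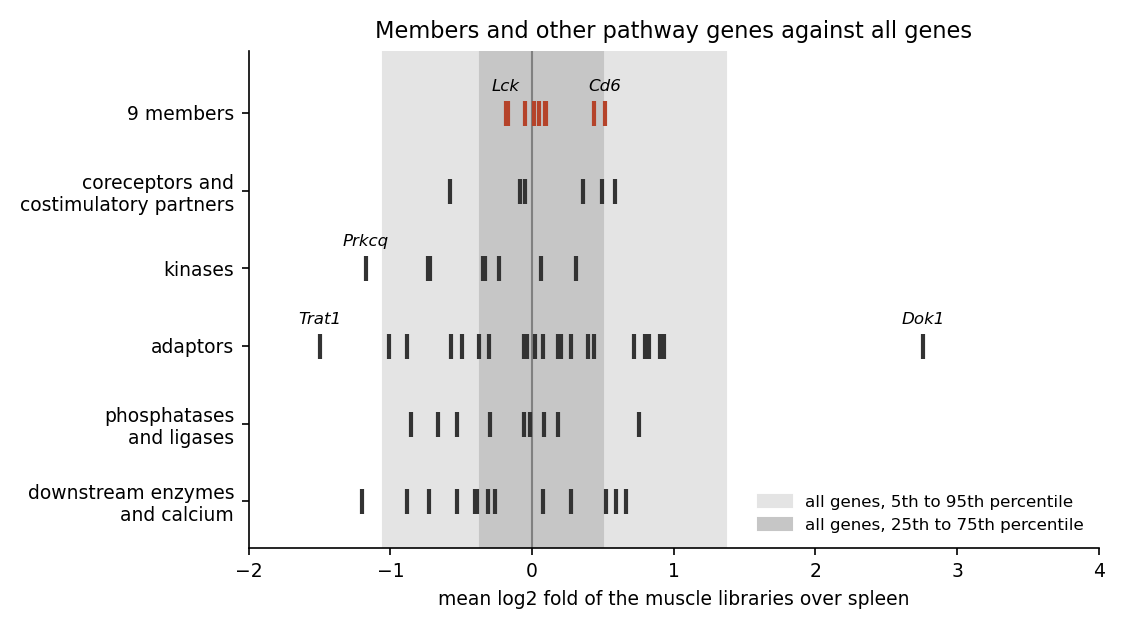
Mean log2 fold of the muscle libraries over spleen for the 9 members and for the 59 measured genes of 5 other pathway lists, 1 tick per gene, over shaded bands for all 7617 genes (5th to 95th and 25th to 75th percentile). The members lie between -0.19 (Lck) and 0.51 (Cd6), whereas the other lists reach from -1.50 (Trat1) to 2.76 (Dok1).

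The genes most like Cd6 and the CD3 chains were found over 6 pools of cells, the effector and resting ends of each library, by the Euclidean distance between log2(CPM + 10) values centred on the mean of the 6 pools. The nearest to Cd6 among 3619 genes with at least 200 UMIs were Ndufa13 (distance 0.16), Rab11fip1 (0.20), Plekhj1 (0.21), Cox8a (0.22) and Gstp2 (0.23), beside a median distance of 1.06. The nearest to the CD3 sum among 3617 genes were Ppp2r5a (0.13), Prpf8 (0.18), Cdc42ep3 (0.18), Csnk1d (0.20) and Crbn (0.20), beside a median of 0.92. Of the other members, Lat was nearest to Cd6, at rank 56, and Lck nearest to the CD3 sum, at rank 42. The named genes have the smallest of many distances, so lying far below the median follows from how they were chosen. Whether any of them varies together with Cd6 or the CD3 chains was not tested.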

How the data were processed

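Sorted Tregs went through inDrops, which captures cells singly in droplets and primes mRNA at the poly(A) tail. The authors deposited raw UMI counts per gene and cell (23725 genes, 1627 cells). Mm10, TopHat2 and SAMtools are named, with no versions, in the submitters' processing notes; which annotation, strand option, UMI collapsing or cell filter was used is not stated there or in the labels. Cells were assigned to libraries by their labels, every cell was kept, and 0 columns of per-sample values went unused. The members and gene lists were chosen with earlier results of these data known.

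For each library the UMIs of all cells were added up and put on the CPM scale. Intervals of 95% are conditional binomial (Clopper-Pearson) for folds, Poisson for levels and binomial for shares, all exact. A count of 0 was replaced by a floor of 3. A gene was called at 2-fold in both muscle libraries with at least 50 UMIs in all, a rule of size and no test. All 9 members are named; of the other pathway lists, every called gene and the 3 further genes with the most UMIs, both known partners of CD5 and CD6, and the 5 nearest profiles to the member with the largest absolute fold and to the CD3 sum. Of the table's symbols, 96.2% occur in GENCODE M21, whose GRCm38 coordinates are given. Doublets were not called, the cells being of a single sorted type; 12 and 7 muscle cells and 0 spleen cells had over 3 times the median UMIs of their library. Thinning used seed 1. Alternatives covered scaling, weight per cell, thinning, depth-matched cells, each muscle library alone, UMI minimum, fold and score. The work was done in Python 3.11.15 (scipy 1.17.1, pandas 2.3.3, numpy 2.4.6, matplotlib 3.10.9); edgeR 4.0.16 and DESeq2 1.42.0 in R 4.3.3 supplied scaling factors only.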

Additional observations from a re-analysis of the deposited data

Results flagged for a closer look

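Along the effector-minus-resting score, Cd3d and Lck leaned one way in spleen and the other way in both muscle libraries. For Cd3d the log2 fold of the effector end over the resting end was -0.12 and -0.35 in the muscle libraries and 0.31 in spleen; for Lck it was -0.05 and -0.04 in the muscle libraries and 0.063 in spleen. The difference was not tested, the interval of Cd3d in spleen held no change, and for Lck every interval did. For Lck the contrast did not hold under every alternative: with the resting genes alone its log2 fold was 0.09 and 0.17 in the muscle libraries and 0.40 in spleen, between cells above and below the median score it was 0.07 in muscle library 2, and with totals without ribosomal protein genes it was -0.12 in spleen. For Cd3d all signs held, and between cells above and below the median the spleen fold was 1.24 (1.03 to 1.51).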

How the results depend on the processing

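The count of members called stayed at 0 under all 13 alternatives, and the members' median log2 fold of 0.05 moved past the spread between the muscle libraries only with totals without ribosomal protein genes, to -0.11. Leaving out a muscle library gave medians of 0.01 and 0.11. Of 90 recomputed member folds, 85 stayed within the counting interval of the fold of both muscle libraries pooled over spleen. The exceptions were Cd3d (-0.06), Lck (-0.34) and Lat (-0.11) without ribosomal protein genes, Cd247 (-0.49) in thinned cells and Cd6 (0.30) without muscle library 2. Counts of called pathway genes are small and moved more: with thinned cells 3 were higher and 1 lower, with cells of 1500 to 5000 UMIs 2 were higher, with 200 UMIs required 0 were higher and 1 lower, with no UMI minimum 4 were lower, and at 1.5-fold 6 were higher and 7 lower. Either muscle library alone gave 2 higher and 4 to 6 lower. Dok1 was called in 12 of the 13 alternatives, Prkcq in all 13 and Trat1 in 10, not with equal weight per cell, in thinned cells or with 200 UMIs required. Along the score, of 150 recomputed folds 8 lost an interval apart from 1 and 7 moved out of a reported interval that held 1; 34 had the opposite sign, each of them where the reported interval held 1. Leaving out cells of shared barcodes, chosen after seeing the data, changed no call of a member. No paired analysis was possible because the spleen has 1 library. Depth limits Zap70 most, with 82 spleen UMIs.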
